A study of Mus musculus with 8 samples.

Results

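Activating transcription factor 4 (ATF4) controls a set of amino acid and stress genes. A list of 38 genes of this programme was examined in bulk liver RNA, with Atf4 itself and kinase genes upstream of it among them. The genes were taken by symbol from the deposited gene count table through the GENCODE M21 annotation of the mouse genome build GRCm38. The 38 symbols matched 39 rows of the 55335 genes in the table, because Ddit3 has a second Ensembl entry, which held 2 counts over all mice and was not tested. The other 38 rows all passed the filter on low counts that left 15234 genes for testing. All 8 mice were female and had been fed ethanol by the NIAAA chronic-plus-binge model, in which a period of ethanol diet ends with a single large dose. In 4 of them, named Ripk1-hepKO (mice 28, 34, 37 and 39), Ripk1 was knocked out in hepatocytes, and the other 4, named Ripk1-Con (mice 29, 32, 40 and 41), were the controls. Ripk1 encodes a kinase that sits between cell survival and cell death signals downstream of the TNF receptor. The sources used here do not give the Cre driver, the exact control genotype or the age of the mice, and every mouse received ethanol, so no value below compares ethanol with its absence.

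ATF4 is the main effector of the integrated stress response. Kinases such as PERK and GCN2 phosphorylate the initiation factor eIF2alpha when unfolded protein, lack of amino acids or other stress is sensed, which slows most translation while that of Atf4 mRNA goes on. ATF4 then dimerises with C/EBP and other partners and drives genes for making, importing and charging amino acids, and under lasting stress it also drives CHOP (Ddit3) and its targets, which are tied to cell death and to the recovery of translation. In liver this programme is known from endoplasmic reticulum stress, mitochondrial stress and dietary amino acid lack. The genes are described here by role, as kinases, transcription factors, the CHOP arm, growth restraint, synthesis of serine, folate, asparagine and proline, transport, and tRNA charging.

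Library totals ran from 28038390 counts (mouse 40) to 67328158 counts (mouse 32). Ripk1 itself stood at 32.5 ± 6.63 CPM (SD, n = 4) in Ripk1-hepKO and 37.5 ± 11.2 CPM (SD, n = 4) in Ripk1-Con, with a log2 fold change of -0.21 ± 0.22 (SE), and the 2 groups overlapped. Counts summed over the gene need not show the loss of an exon in 1 cell type, so these values neither check nor contradict the labels. Mouse 28 stood apart from the rest, with a mean Spearman correlation to the other mice of 0.954 over genes, against 0.974 to 0.980 for the others. The results are given with and without it, as was laid down when these genes were chosen. The sum of 8 hepatocyte markers such as Alb and Apoa1 was lowest in mouse 28 (69282 in CPM, which are counts scaled for library depth, against 85672 to 116430 in the other 7 mice). That sum was 69282 to 92541 CPM in the Ripk1-hepKO mice and 98424 to 116430 in the Ripk1-Con mice, and every one of the 8 markers was detected in every mouse. Alb made up most of it. Without Alb the other 7 markers summed to 20424 to 24946 CPM in the Ripk1-hepKO mice and 23996 to 29047 CPM in the Ripk1-Con mice, so the groups overlapped, and the lowest sum was that of mouse 39, with mouse 28 at 20817 CPM. In bulk RNA, fewer cells of a type and less RNA per cell cannot be told apart.

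ATF4 with a C/EBP partner binds the C/EBP-ATF response element, and its letters were looked for in the promoters. The RefSeq promoter table for GRCm38.p6 gives 250 bases before and 50 after each start site and holds 38 windows for 33 of the 38 genes (not for Eif4ebp1, Mars, Nars, Slc7a5 and Wars). The motif TGATGNAA, on either strand, was present in 10 of the 38 windows (26.3%), against 1304 of the 32851 windows of all genes in the table (3.97%). By role it was in 4 of 6 windows of the CHOP arm, 2 of 3 of the asparagine and proline enzymes, 2 of 4 of the tRNA synthetases, and 0 of 7 of the serine and folate enzymes. The cyclic AMP response element TGACGTCA was in 1 window (Ppp1r15a, 2.63%), against 1.79% of all windows, and CCAAT, a short box that turns up in many promoters, in 19 (50%), against 37.4%. The motifs were searched separately, so a base can belong to more than 1 match, and a match of letters is not a measured binding site.

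Stretches before the start site that hold the motif are printed for 3 genes whose level peaked in mouse 28 (Atf3, Chac1 and Slc7a11) and for 1 that peaked in mouse 40 (Pycr1), so that the motif can be seen in place. They are in the gene's own direction, 5′ to 3′, begin 250 bases before the RefSeq start site and stop short of annotated exons. Capitals mark the motif, which reads TTGCATCA where the match lies on the opposite strand. The stretch of Atf3 is chr1:191183341-191183583 (minus strand), that of Chac1 is chr2:119350992-119351228 (plus), that of Slc7a11 is chr3:50443615-50443863 (minus) and that of Pycr1 is chr11:120643770-120643998 (minus), all in GRCm38.p6.
Atf3: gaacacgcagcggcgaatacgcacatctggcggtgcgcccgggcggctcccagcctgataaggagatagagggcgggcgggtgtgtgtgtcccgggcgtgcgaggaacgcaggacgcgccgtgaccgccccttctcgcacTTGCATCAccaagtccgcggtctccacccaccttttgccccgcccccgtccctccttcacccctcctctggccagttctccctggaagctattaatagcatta
Chac1: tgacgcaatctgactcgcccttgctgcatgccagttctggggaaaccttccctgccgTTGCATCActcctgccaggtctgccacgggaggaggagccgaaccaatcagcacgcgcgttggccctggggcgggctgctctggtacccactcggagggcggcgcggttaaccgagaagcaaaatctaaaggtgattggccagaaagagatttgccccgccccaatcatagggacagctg
Slc7a11: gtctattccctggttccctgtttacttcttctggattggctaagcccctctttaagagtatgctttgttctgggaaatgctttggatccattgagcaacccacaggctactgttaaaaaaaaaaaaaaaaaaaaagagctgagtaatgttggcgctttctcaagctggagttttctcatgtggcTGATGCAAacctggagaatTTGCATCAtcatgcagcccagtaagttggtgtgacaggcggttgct
Pycr1: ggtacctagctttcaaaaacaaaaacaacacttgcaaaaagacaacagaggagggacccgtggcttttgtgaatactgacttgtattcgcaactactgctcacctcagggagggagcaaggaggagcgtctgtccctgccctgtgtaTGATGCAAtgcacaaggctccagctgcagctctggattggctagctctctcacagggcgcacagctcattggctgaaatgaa
The motif began 110 bases before the start site in Atf3, 193 in Chac1 and 103 in Pycr1. Slc7a11 held it in both directions, 66 and 47 bases before its start site.

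For 5 other genes with a match, 30 bases around it are printed in the same way, to show the motif with its flanks. The sites are chr2:152344028-152344057 (minus) for Trib3, chr6:7693214-7693243 (minus) for Asns, chr7:126625562-126625591 (minus) for Nupr1, chr6:55037960-55037989 (plus) for Gars and chr19:27216809-27216838 (plus) for Vldlr.
Trib3: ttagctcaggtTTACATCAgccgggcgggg
Asns: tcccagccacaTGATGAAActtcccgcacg
Nupr1: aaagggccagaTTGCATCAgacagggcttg
Gars: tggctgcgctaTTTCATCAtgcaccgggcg
Vldlr: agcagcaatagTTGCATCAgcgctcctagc
In Trib3 the motif begins at base 15 downstream, with the RefSeq start site counted as base 1. The 10 genes with the motif did not share the mouse in which they were highest, which was mouse 28 for 4, mouse 40 for 5 and mouse 34 for 1. Their median log2 fold change between genotypes was 0.29, and that of the 23 matched genes without the motif was 0.42. Leaving out mouse 28 brought these medians to 0.12 and 0.12.

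None of the 38 genes passed the threshold for a genotype difference in edgeR. The highest levels of most CHOP arm, kinase and transporter genes came from 1 Ripk1-hepKO mouse, and those of most amino acid enzymes and synthetases from 1 mouse of each genotype. Ripk1-hepKO was compared with Ripk1-Con by edgeR's quasi-likelihood test, with Benjamini-Hochberg adjustment over all 15234 genes and a false discovery rate of 0.05. Of all genes tested 0 passed (0%, lowest adjusted p 0.742), with 1017 at an unadjusted p under 0.05, while DESeq2 called 36 genes and limma voom 0, with or without sample weights. Of the 38 genes 0 passed with any of these tools. At an unadjusted p under 0.05 there were 5, all higher in Ripk1-hepKO, namely Mthfd2, Aldh18a1, Slc7a11, Eif4ebp1 and Ppp1r15a, where 3.86% of all genes were higher at that level and 2.82% lower. The groups did not overlap in 0 of the 38, in either direction. Of all 15234 genes, 306 (2.01%) had every Ripk1-hepKO mouse above every Ripk1-Con mouse, and 319 had every one below. Fold changes above 0 on the log2 scale were found for 30 of the 38 (51.8% of all genes), with a median of 0.29 beside 0.01 for all genes. Without mouse 28, 27 were above 0 and the median was 0.12, beside 7719 of the 15234 genes and a median of 0.003. In that comparison of 3 mice with 4, 0 of 15500 genes passed in edgeR (0%, with 891 at an unadjusted p under 0.05, and 34 past the threshold in DESeq2, none among the 38). Mthfd2 and Aldh18a1 were then higher and Cebpb lower at an unadjusted p under 0.05, beside 2.7% of all genes higher and 3.05% lower.

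Which mouse was highest differed by role. Mouse 28 was the highest of the 8 for 16 of the 38 genes (26.3% of all genes) and the lowest for 5 (26.8% of all genes), and it exceeded the median of the other 7 mice more than 2-fold for 12 of them (8.77% of all genes). Mouse 34 (Ripk1-hepKO) or mouse 40 (Ripk1-Con) was highest for 18 (22% of all genes), 8 in mouse 34 and 10 in mouse 40. Mouse 28 was highest for 4 of the 6 genes of the CHOP arm, both kinases and all 4 transporters. Mouse 34 or 40 was highest for 3 of the 6 serine and folate enzymes, all 3 asparagine and proline enzymes and all 7 tRNA synthetases. Of the serine and folate enzymes, mouse 37 was highest for 2, as many as mouse 34, and mice 40 and 28 for 1 each. Mice 29 and 32, both controls, were lowest for 12 and 10 of the genes (9.56% and 12.5% of all genes).

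Markers of some other cell types were highest or lowest in mice 28 and 40, and none of the markers was at 0 in all mice. The sum of 8 monocyte and macrophage markers was 150 CPM in mouse 28 and 27.7 (mouse 40) to 105 CPM in the others, and 7 of the 8 were highest in mouse 28. Neutrophil markers summed to 49.2 CPM in mouse 28 and 3.85 CPM in mouse 40, with 10.3 to 34.3 CPM in the other 6. Stellate cell markers summed to 199 CPM and cholangiocyte markers to 62.8 CPM in mouse 28, against 87.3 to 138 and 13.5 to 35.6 CPM in the other mice. Spp1 alone made up 53.7 CPM of that cholangiocyte sum, and 3 of the 6 cholangiocyte markers were below 1 CPM in every mouse. All 4 proliferation genes were highest in mouse 28, with a sum of 21.5 CPM against 0.863 to 5.14 CPM. Kupffer cell markers were lowest in mouse 40, at 69.8 CPM against 159 to 317 CPM, with mouse 28 inside that range at 278 CPM. Endothelial markers did not set either mouse apart, at 171 CPM in mouse 28 and 173 CPM in mouse 40 within a range of 102 to 206 CPM in the other mice. T and NK cell markers summed to at most 4.07 CPM and B cell markers to at most 2.45 CPM in any mouse. The share of counts from mitochondrial genes was 10.5% in mouse 28 and 8.86% to 9.74% in the others. The part of these differences, and of the hepatocyte marker sum, in the levels of the 38 genes was not tested.

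**Figure D1:**
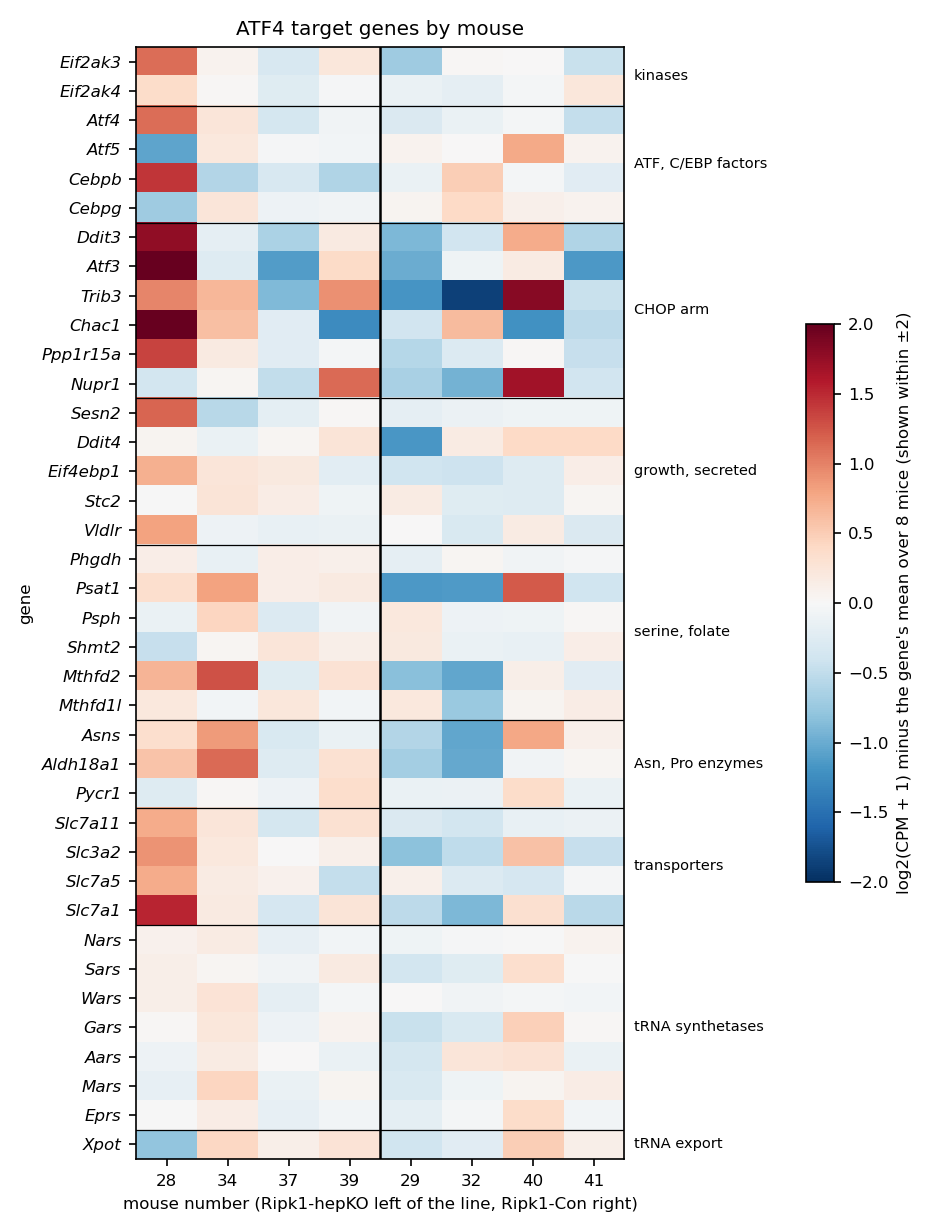
Level of each of the 38 genes of the ATF4 programme (rows, grouped by role) in each of the 8 mice (columns), as log2(CPM + 1) minus the mean of that gene over the 8 mice, on a colour scale shown within ±2. Red cells gather in mouse 28 in the upper rows (kinases, Atf4, Ddit3, Atf3, Chac1) and the transporters, and in mice 34 and 40 among the enzymes and tRNA synthetases.

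Both eIF2alpha kinases examined were highest in mouse 28. Values are given from here on in the order of mice 28, 34, 37 and 39 for Ripk1-hepKO and 29, 32, 40 and 41 for Ripk1-Con, in CPM scaled by TMM, and a positive log2 fold change means a higher level in Ripk1-hepKO, with its SE after the ± sign. Eif2ak3 (chr6:70844515-70905245, plus strand), which encodes the endoplasmic reticulum stress sensor PERK, measured 63.7, 30.2, 22.9 and 33.8 CPM in Ripk1-hepKO and 17.2, 29.2, 29 and 20.8 CPM in Ripk1-Con. Mouse 28 lay at 2.2 times the median of the other mice, while mice 34 and 39 were just above the controls and mouse 37 among them. The Eif2ak3 log2 fold change was 0.65 ± 0.31 (SE, adjusted p = 0.759), and without mouse 28 it was 0.27 ± 0.21. Eif2ak4 encodes GCN2, which senses uncharged tRNA, and measured 11, 8.42, 6.82 and 8.12 CPM in Ripk1-hepKO and 7.47, 7.18, 8.07 and 9.83 CPM in Ripk1-Con. The groups overlapped throughout, the Eif2ak4 log2 fold change was 0.08 ± 0.18 (SE, adjusted p = 0.942), and the sign turned without mouse 28 to -0.06 ± 0.16.

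Among the transcription factors, Atf4 and Cebpb were highest and Atf5 and Cebpg lowest in the same animal, mouse 28. Atf4 (chr15:80255184-80257541, plus strand) measured 241, 132, 86.7 and 106 CPM in Ripk1-hepKO and 90.5, 102, 108 and 79.9 CPM in Ripk1-Con. Mouse 28 held 2.37 times the median of the others and mouse 34 the next highest level, while mice 37 and 39 lay within the range of the controls. The Atf4 log2 fold change was 0.58 ± 0.29 (SE, adjusted p = 0.763), with 0.19 ± 0.16 without mouse 28. Atf5, a relative of ATF4 that acts in the mitochondrial stress response and is abundant in liver, measured 197, 475, 406 and 397 CPM in Ripk1-hepKO and 434, 414, 695 and 432 CPM in Ripk1-Con. Mouse 28 was the lowest, at 0.456 times the median of the others, and the control mouse 40 the highest. Per kilobase of exon the mean level over the 8 mice was 216 CPM for Atf5 and 50.2 CPM for Atf4. The Atf5 log2 fold change was -0.42 ± 0.28 (SE, adjusted p = 0.788), and -0.21 ± 0.20 without mouse 28.

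Cebpb encodes C/EBP-beta, a partner of ATF4 that also acts in acute inflammation, and it measured 35.8, 8.17, 9.95 and 8.01 CPM in Ripk1-hepKO and 11.5, 18.4, 12.3 and 10.7 CPM in Ripk1-Con. Without mouse 28 the direction turned. The other 3 Ripk1-hepKO mice (8.01 to 9.95 CPM) were all below the 4 controls (10.7 to 18.4 CPM), with a log2 fold change of -0.60 ± 0.20 and an adjusted p = 0.857 without mouse 28. The share of all genes that separate in this way, in 3 mice against 4, was not counted. The separation therefore cannot be read as a trait of Cebpb. With all mice the Cebpb log2 fold change was 0.23 ± 0.49 (SE, adjusted p = 0.938). Cebpg encodes C/EBP-gamma, which dimerises with ATF4 on amino acid genes. It measured 48.2, 93.7, 73.4 and 75.5 CPM in Ripk1-hepKO and 82.3, 105, 85.3 and 83.4 CPM in Ripk1-Con, lowest in mouse 28 and highest in mouse 32. The Cebpg log2 fold change was -0.29 ± 0.19 (SE, adjusted p = 0.783), and -0.14 ± 0.13 without mouse 28.

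The CHOP arm had a median log2 fold change of 0.80, which was 0.12 without mouse 28. In 4 of its 6 genes mouse 28 was the highest, and in 5 it exceeded the median of the other 7 mice more than 2-fold. Ddit3 (chr10:127290774-127296288, plus strand) encodes CHOP and measured 55.7, 13.6, 9.67 and 17.7 CPM in Ripk1-hepKO and 7.82, 11.7, 26.5 and 9.9 CPM in Ripk1-Con. Mouse 28 stood alone at 4.78 times the median of the others, the next highest was the control mouse 40, and mice 34, 37 and 39 lay within the controls. The Ddit3 log2 fold change was 0.80 ± 0.59 (SE, adjusted p = 0.806), and leaving out mouse 28 took it to -0.03 ± 0.42. The 3′ ends of Ddit3 and Mars overlap on opposite strands, and the strand setting of the counting is not given in the sources used here, so reads from that overlap cannot be assigned with certainty. Other genes given in full also overlap annotated protein-coding genes in position, among them Atf5, Cebpb, Ppp1r15a, Shmt2, Wars and Aars. Whether their exons overlap was not examined, so the same limit may hold for them.

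Atf3 (chr1:191170296-191218039, minus strand), a stress-induced repressor that is also an early response gene, measured 46.7, 3.79, 1.66 and 6.5 CPM in Ripk1-hepKO and 1.88, 4.43, 5.48 and 1.59 CPM in Ripk1-Con. This was the largest fold of mouse 28 over the others among the 38 genes, 12.3 times their median, and no other mouse exceeded 6.50 CPM. The Atf3 log2 fold change was 2.14 ± 0.98 (SE, adjusted p = 0.75), with 0.26 ± 0.56 without it. Chac1, which degrades glutathione, measured 22, 5.8, 2.85 and 0.884 CPM in Ripk1-hepKO and 2.42, 5.98, 0.93 and 2.11 CPM in Ripk1-Con, so mouse 28 was at 9.08 times the median of the others while the Ripk1-hepKO mouse 39 had the lowest level of all. The Chac1 log2 fold change was 1.44 ± 0.90 (SE, adjusted p = 0.779), and 0.12 ± 0.72 without mouse 28. Ppp1r15a encodes GADD34, the phosphatase subunit that reverses eIF2alpha phosphorylation, and measured 39.1, 16.9, 12.5 and 14.4 CPM in Ripk1-hepKO and 9.61, 12.1, 15 and 10.5 CPM in Ripk1-Con. Mice 28 and 34 were above every control, and mice 37 and 39 were above 3 of the 4 controls. It reached a fold of 1.76 (95% interval 1.01 to 3.04) with a log2 fold change of 0.81 ± 0.35 (SE, adjusted p = 0.742), and without mouse 28 0.31 ± 0.18.

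The remaining genes of the CHOP arm differed from Ddit3 and Atf3 in that the control mouse 40 held the highest level. Trib3 (chr2:152337422-152344032, minus strand), a pseudokinase that restrains AKT and ATF4, measured 15.4, 12.1, 3.48 and 14.6 CPM in Ripk1-hepKO and 2.68, 1.28, 28.3 and 5.11 CPM in Ripk1-Con. The controls alone spanned 1.28 to 28.3 CPM, wider than the Ripk1-hepKO group. The Trib3 log2 fold change was 0.30 ± 0.88 (SE, adjusted p = 0.958), and 0.13 ± 1.08 without mouse 28. Nupr1, a small nuclear stress protein, ran from 4.48 to 16 CPM in Ripk1-hepKO and from 2.99 to 23.9 CPM in Ripk1-Con. Its highest level was in mouse 40 and the next in mouse 39, and mouse 28 lay at 4.97 CPM, 1.01 times the median of the others.

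**Figure D2:**
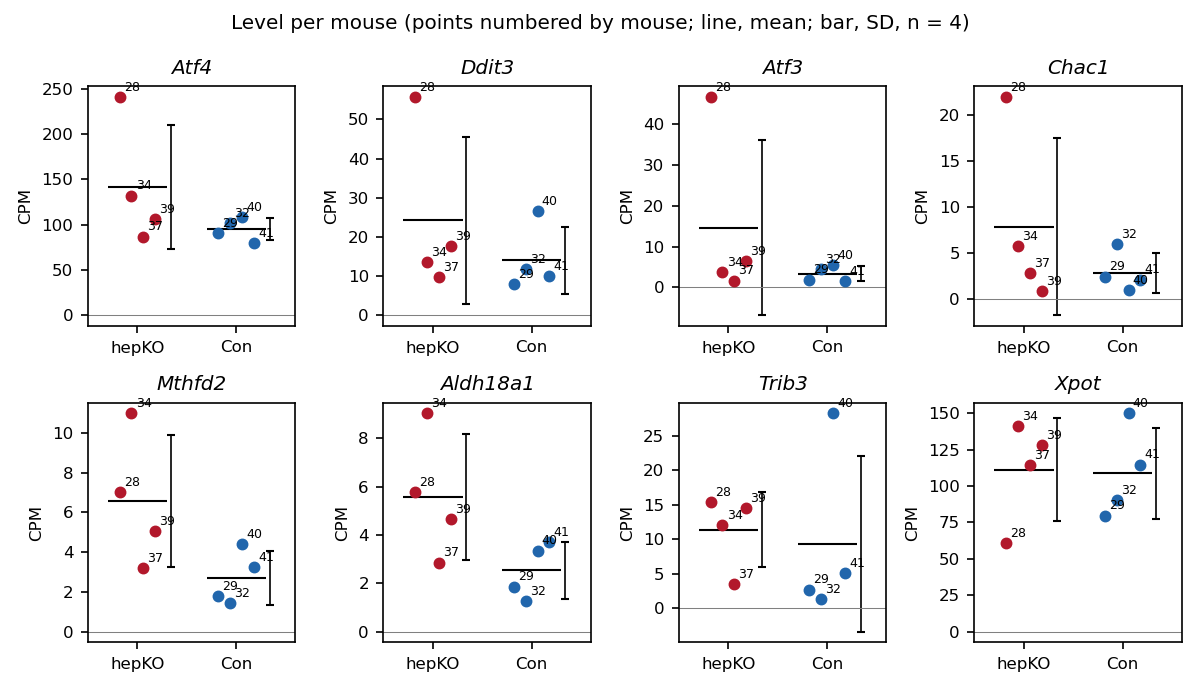
Level in CPM (vertical axes, linear and including 0) of 8 genes in each mouse, numbered points in red for Ripk1-hepKO and blue for Ripk1-Con, with the group mean as a line and the SD (n = 4) as a bar. Atf4, Ddit3, Atf3 and Chac1 have mouse 28 far above the rest, Mthfd2 and Aldh18a1 peak in mouse 34, Trib3 and Xpot peak in the control mouse 40, and Xpot is lowest in mouse 28.

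Genes for growth restraint and secreted or surface products had a median of 0.42 with all mice and -0.01 without mouse 28. Eif4ebp1 encodes 4E-BP1, which holds back cap-dependent translation, and measured 39.9, 28.5, 27.6 and 20.7 CPM in Ripk1-hepKO and 18.1, 17.7, 19.96 and 26.5 CPM in Ripk1-Con. Mice 28, 34 and 37 were above every control while mouse 39 was among them. It reached a fold of 1.42 (95% interval 1.03 to 1.96), with a log2 fold change of 0.51 ± 0.21 (SE, adjusted p = 0.742), and without mouse 28 0.32 ± 0.17. Sesn2 encodes sestrin 2, which restrains mTORC1 when leucine is low, and measured 25.4, 6.97, 9.25 and 10.9 CPM in Ripk1-hepKO and 9.36, 9.84, 10.03 and 10.1 CPM in Ripk1-Con. The 4 controls lay within 9.36 to 10.1 CPM, mouse 28 was far above them, mouse 39 just above, and mice 34 and 37 below. The Sesn2 log2 fold change was 0.42 ± 0.36 (SE, adjusted p = 0.827), and -0.12 ± 0.16 without mouse 28.

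Vldlr encodes the very low density lipoprotein receptor, through which liver takes up lipid under stress, and measured 25.5, 13.1, 12.6 and 12.8 CPM in Ripk1-hepKO and 14.1, 11.2, 15.9 and 11.4 CPM in Ripk1-Con. Apart from mouse 28 the Ripk1-hepKO mice were within 12.6 to 13.1 CPM, inside the span of the controls. The Vldlr log2 fold change was 0.28 ± 0.25 (SE, adjusted p = 0.832), and -0.03 ± 0.15 without mouse 28. Ddit4 encodes REDD1, an inhibitor of mTORC1, and ranged from 3.99 to 5.54 CPM in Ripk1-hepKO and from 1.45 to 6.2 CPM in Ripk1-Con, with a log2 fold change of -0.01 with and without mouse 28. Stc2, a secreted stanniocalcin, was near the floor with 2 to 19 counts per library, and its log2 fold change of 0.68 had an SE of 0.62 and was 0.79 without mouse 28.

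The serine and folate enzymes had a median log2 fold change of 0.31, and 0.27 without mouse 28, and mouse 28 was highest in 1 of the 6. Mthfd2 (chr6:83305691-83325908, minus strand), the mitochondrial folate dehydrogenase, had the smallest p of the 38 genes and measured 7.02, 11, 3.2 and 5.05 CPM in Ripk1-hepKO and 1.8, 1.42, 4.38 and 3.25 CPM in Ripk1-Con. Mice 28, 34 and 39 were above every control, and mouse 37 lay between mice 41 and 29. It reached a fold of 2.43 (95% interval 1.2 to 4.92), with a log2 fold change of 1.28 ± 0.45 (SE, adjusted p = 0.742). Without mouse 28 the difference had about the same size, at 1.25 ± 0.50. But without mouse 29 (log2 fold change 1.13) or without mouse 34 (0.92) Mthfd2 no longer had an unadjusted p under 0.05. Without mouse 29, 0 of the 38 genes reached that level, where 4.07% of all genes did.

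Psat1, the transaminase of serine synthesis, measured 10.4, 14.9, 8.92 and 9.24 CPM in Ripk1-hepKO and 3.08, 3.12, 20.2 and 5.87 CPM in Ripk1-Con. All 4 Ripk1-hepKO mice were above 3 of the controls, and the remaining control, mouse 40, was the highest of all. The Psat1 log2 fold change was 0.44 ± 0.58 (SE, adjusted p = 0.896), and 0.46 ± 0.69 without mouse 28. It was 1.44 without mouse 40 and 0.16 without mouse 32. Phgdh, the first enzyme of serine synthesis, is barely expressed here, at 4 to 21 counts per library, and measured 0.385, 0.139, 0.374 and 0.343 CPM in Ripk1-hepKO and 0.114, 0.291, 0.199 and 0.237 CPM in Ripk1-Con. The Phgdh log2 fold change was 0.54 ± 0.45 (SE, adjusted p = 0.819), and 0.42 ± 0.51 without mouse 28, with overlapping groups.

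Shmt2 (chr10:127517123-127522444, minus strand), which moves a one-carbon unit from serine to folate in mitochondria, was the most abundant of the class per kilobase and measured 102, 144, 167 and 152 CPM in Ripk1-hepKO and 160.1, 128, 127 and 154 CPM in Ripk1-Con. Mouse 28 was the lowest and the Ripk1-hepKO mouse 37 the highest. The Shmt2 log2 fold change was -0.01 ± 0.16 (SE, adjusted p = 0.995), and 0.12 ± 0.12 without mouse 28. Psph, the phosphatase that completes serine synthesis, ranged from 3.41 to 6.24 CPM over all mice with a log2 fold change of -0.01 (0.05 without mouse 28), highest in mouse 34. Mthfd1l, which releases formate from mitochondrial folate, ranged from 1.37 to 3.67 CPM with a log2 fold change of 0.18 (0.12 without mouse 28).

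The 3 asparagine and proline enzymes all had their highest level in mouse 34 or mouse 40. Aldh18a1 (chr19:40550257-40588463, minus strand), which makes the proline precursor pyrroline-5-carboxylate, measured 5.77, 9.03, 2.85 and 4.64 CPM in Ripk1-hepKO and 1.85, 1.24, 3.35 and 3.7 CPM in Ripk1-Con. Mice 34, 28 and 39 were above every control, and mouse 37 was within them. It reached a fold of 2.2 (95% interval 1.13 to 4.29), with a log2 fold change of 1.14 ± 0.43 (SE, adjusted p = 0.742), and 1.12 ± 0.47 without mouse 28. Without mouse 29 (log2 fold change 1.02), mouse 32 (0.90) or mouse 34 (0.81) Aldh18a1 no longer had an unadjusted p under 0.05. Asns, asparagine synthetase and a classic ATF4 target, measured 5.33, 8.08, 3.06 and 3.59 CPM in Ripk1-hepKO and 2.34, 1.45, 7.64 and 4.37 CPM in Ripk1-Con. Mouse 34 and the control mouse 40 were highest with nearly equal levels, and mouse 32 was lowest. The Asns log2 fold change was 0.35 ± 0.51 (SE, adjusted p = 0.906), and 0.32 ± 0.58 without mouse 28. It was 0.89 without mouse 40 and 0.03 without mouse 34.

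Pycr1, the mitochondrial reductase that finishes proline synthesis, was low at 15 to 55 counts per library and measured 0.312, 0.585, 0.467 and 0.993 CPM in Ripk1-hepKO and 0.428, 0.453, 1.03 and 0.427 CPM in Ripk1-Con. The Ripk1-hepKO mouse 39 and the control mouse 40 were both near 1 CPM, and mouse 28 was lowest. The Pycr1 log2 fold change was 0.03 ± 0.46 (SE, adjusted p = 0.992), and 0.26 ± 0.45 without mouse 28. The class median was 0.35 with all mice and 0.32 without mouse 28.

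Amino acid transporters had the highest class median, 1.02, which was 0.52 without mouse 28, and mouse 28 was the highest for all 4. Slc7a11 (chr3:49892526-50443614, minus strand), the cystine importer of system xc, is scarce in liver, at 3 to 70 counts per library, and measured 1.28, 0.613, 0.0701 and 0.686 CPM in Ripk1-hepKO and 0.114, 0.0647, 0.232 and 0.261 CPM in Ripk1-Con. Mice 28, 34 and 39 were above every control while mouse 37 was close to the lowest. It reached a fold of 4.05 (95% interval 1.23 to 13.3), a wide interval, with a log2 fold change of 2.02 ± 0.76 (SE, adjusted p = 0.742), and 1.48 ± 0.75 without mouse 28. Slc7a1, a carrier of arginine and lysine, measured 6.29, 1.9, 1.03 and 2.04 CPM in Ripk1-hepKO and 0.77, 0.372, 2.19 and 0.76 CPM in Ripk1-Con. In mouse 28 it was at 6.12 times the median of the others, and mouse 40 came next. The Slc7a1 log2 fold change was 1.49 ± 0.67 (SE, adjusted p = 0.749), and 0.73 ± 0.55 without mouse 28.

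Slc3a2 encodes the heavy chain CD98, which carries Slc7a11 and Slc7a5 to the membrane, and measured 110.5, 68.6, 59.1 and 63 CPM in Ripk1-hepKO and 32.9, 41, 89.1 and 42.7 CPM in Ripk1-Con. All 4 Ripk1-hepKO mice were above 3 of the controls, and mouse 40 was second only to mouse 28. The Slc3a2 log2 fold change was 0.55 ± 0.33 (SE, adjusted p = 0.774), and 0.31 ± 0.32 without mouse 28. Slc7a5, the leucine importer LAT1, ran from 1.61 to 5.06 CPM, with a log2 fold change of 0.44 ± 0.33 (SE) that was 0.10 without mouse 28. By mean CPM per kilobase of exon, Slc3a2 was at 18 and Slc7a11 at 0.0299.

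The tRNA synthetases had the narrowest range of fold changes among the classes of more than 1 gene, from -0.05 to 0.11 on the log2 scale, a median of 0.08 and SEs of 0.10 to 0.19. Mouse 34 or mouse 40 was highest in all 7 and the control mouse 29 was lowest in 5. Wars, which charges tRNA with tryptophan, measured 20.7, 23.3, 16.7 and 18.5 CPM in Ripk1-hepKO and 19.1, 18.1, 18.5 and 18.3 CPM in Ripk1-Con. Every mouse but mouse 34 lay within 16.7 to 20.7 CPM, and the Wars log2 fold change was 0.10 ± 0.12 (SE, adjusted p = 0.89), and 0.07 ± 0.13 without mouse 28. Sars, the seryl enzyme, measured 86.1, 81.1, 75.1 and 89.5 CPM in Ripk1-hepKO and 61.2, 66.3, 100.2 and 78.9 CPM in Ripk1-Con. The control mouse 40 was highest, the controls enclosed all Ripk1-hepKO mice, and the Sars log2 fold change was 0.11 ± 0.16 (SE, adjusted p = 0.898), and 0.10 ± 0.17 without mouse 28.

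Mars, the methionyl enzyme next to Ddit3, measured 48.5, 74.5, 49.98 and 56.9 CPM in Ripk1-hepKO and 44.3, 51.6, 56.9 and 60.6 CPM in Ripk1-Con. Mouse 34 was highest, and mouse 28, in which Ddit3 peaked, had the level next above the lowest. The Mars log2 fold change was 0.11 ± 0.16 (SE, adjusted p = 0.907), and 0.18 ± 0.16 without mouse 28. Aars, the alanyl enzyme, measured 235, 283, 252 and 229.6 CPM in Ripk1-hepKO and 198, 298, 308 and 230 CPM in Ripk1-Con. Mice 32 and 40 were highest, and the Aars log2 fold change was -0.05 ± 0.16 (SE, adjusted p = 0.966), and -0.02 ± 0.17 without mouse 28. Nars, Gars and Eprs, the asparaginyl, glycyl and joint glutamyl-prolyl enzymes, had log2 fold changes of 0.02, 0.08 and -0.05, and of -0.01, 0.09 and -0.05 without mouse 28.

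Xpot (chr10:121587380-121626332, minus strand), exportin-T, carries mature tRNA out of the nucleus and measured 60.8, 141, 114 and 128 CPM in Ripk1-hepKO and 79.6, 90.5, 149.8 and 115 CPM in Ripk1-Con. Mouse 28 was the lowest of the 8, at 0.531 times the median of the others, and mice 40 and 34 were highest. The Xpot log2 fold change was 0.03 ± 0.28 (SE, adjusted p = 0.989), and 0.24 ± 0.21 without mouse 28. Over the 4 roles named for comparison, the medians with all mice were 1.02 for transporters, 0.80 for the CHOP arm, 0.31 for the serine and folate enzymes and 0.08 for the synthetases. Without mouse 28 they were 0.52, 0.12, 0.27 and 0.07. The CHOP arm thus lost the most and the enzymes and synthetases little, and these medians of 4 to 7 genes carry no test. Mouse 28 was the highest for 4 of the 6 CHOP arm genes and all 4 transporters. Leaving it out therefore lowers the Ripk1-hepKO means of those genes by construction. The transporter median was 1.57 without the control mouse 40 and 0.55 under a filter of 1 CPM, which leaves out Slc7a11. Under that filter the CHOP arm stood at 0.81, above the transporters, so their order turned. The serine and folate median was 0.05 without the control mouse 32.

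**Figure D3:**
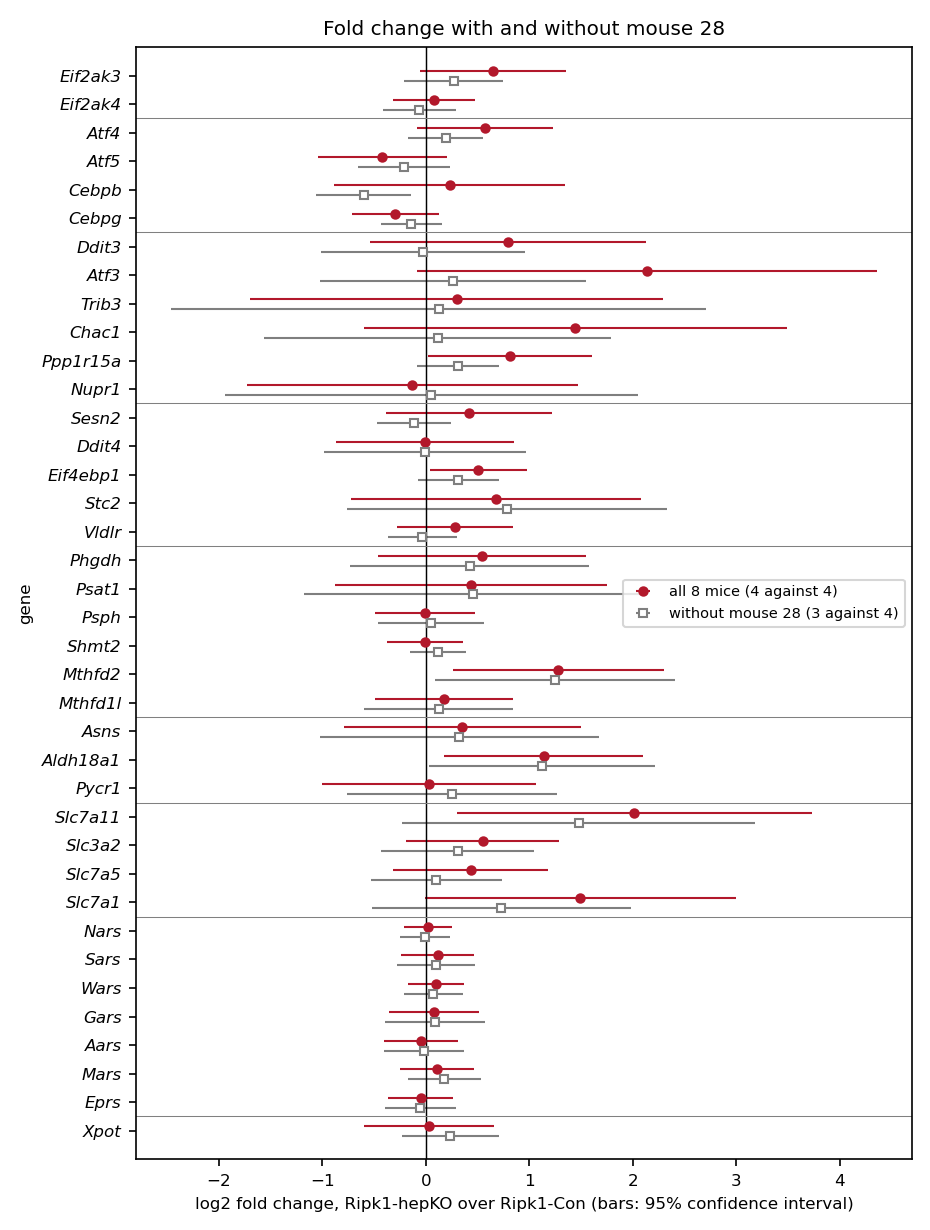
Log2 fold change of Ripk1-hepKO over Ripk1-Con (horizontal axis) for each of the 38 genes, with all 8 mice (filled red circles) and without mouse 28 (open grey squares), with 95% confidence intervals as bars. Atf3 goes from 2.14 to 0.26 and Ddit3 from 0.80 to -0.03 when mouse 28 is left out, whereas Mthfd2 (1.28 and 1.25) and Aldh18a1 (1.14 and 1.12) hardly move.

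The level of each class in each mouse sums up the same values. It is no separate support for the division by role. Class level was taken as the mean log2(CPM + 1) of its genes minus the mean over the 8 mice. For the CHOP arm mouse 28 was at 1.52, the control mouse 40 came next at 0.54, and mouse 34 was at 0.17. The transporters stood at 0.97 in mouse 28, 0.20 in mouse 34 and 0.11 in mouse 40. The order was another one for the serine and folate enzymes, with 0.39 in mouse 34, 0.18 in mouse 40 and 0.13 in mouse 28. For the tRNA synthetases mice 34 and 40 were level at 0.21 and 0.21, with mouse 28 at 0.01.

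**Figure D4:**
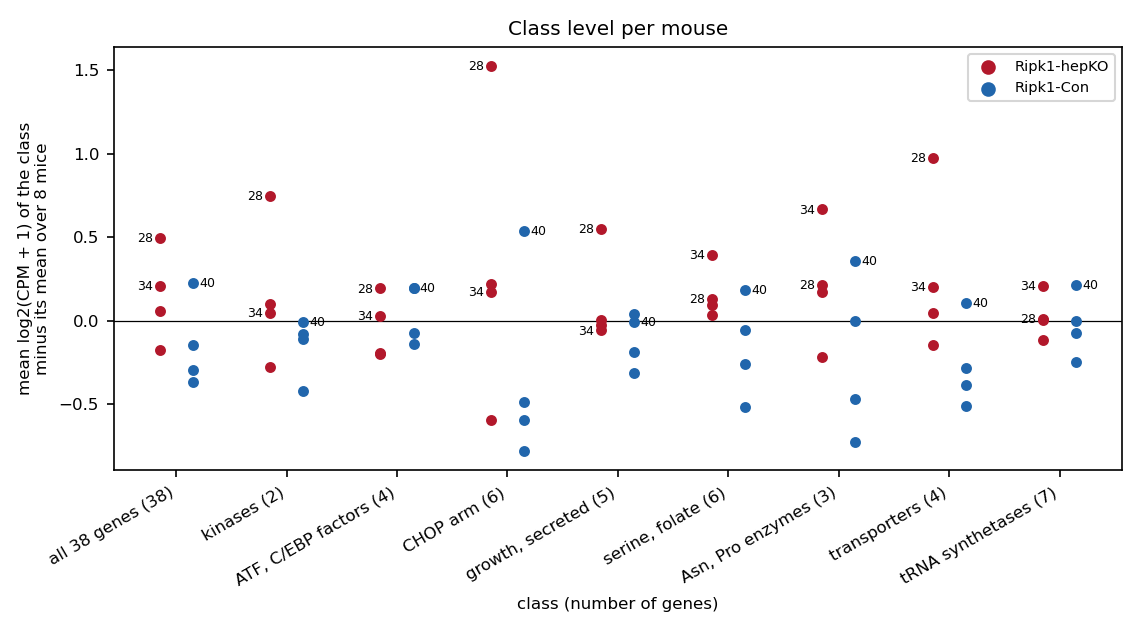
Class level in each mouse (vertical axis, mean log2(CPM + 1) of the genes in a class minus its mean over the 8 mice) for all 38 genes and 8 classes, in red for Ripk1-hepKO and blue for Ripk1-Con, with mice 28, 34 and 40 numbered. Mouse 28 leads in the CHOP arm and transporters, and mice 34 and 40 lead in the synthesis and tRNA charging classes.

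The number of the 38 genes with an unadjusted p under 0.05, 5 with all mice (6.68% of all genes in either direction), depended on which mouse was left out. It was 8, all higher in Ripk1-hepKO, without any 1 of mice 37, 39 and 40, where 9.07%, 7.33% and 7.62% of all genes reached that level. It was 4 without mouse 34 (6.05%) and 4 without mouse 41 (4.79%), 3 without mouse 28 (5.75%), 1 without mouse 32 (4.89%) and 0 without mouse 29 (4.07%). Mouse 40 was the highest of all mice for 10 of the 38, so its removal lowers the control mean of those genes by construction. With mice 28 and 40 both left out, the count was 10, beside 9.48% of all genes. In this comparison of 3 mice with 3, Aldh18a1, Mthfd2, Nupr1, Ppp1r15a, Psat1, Slc3a2, Slc7a1, Trib3 and Xpot were higher in Ripk1-hepKO and Cebpb was lower, and the lowest adjusted p among the 38 in edgeR was 0.328. DESeq2 with all mice gave 8, all higher (7.87% of all genes).

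Other genes of the pathway, from lists kept apart from the 38, held few differences. Of 22 other ATF4 targets tested, 17 had a fold change above 0 (median 0.17, or 0.12 without mouse 28) and 0 passed the threshold. Gdf15, a secreted stress cytokine, measured 80.9, 6.75, 4.62 and 15.7 CPM in Ripk1-hepKO and 4.22, 4.995, 5.81 and 3.66 CPM in Ripk1-Con, with a log2 fold change of 2.53 ± 0.84 (SE, adjusted p = 0.742), and 0.96 without mouse 28. Crebrf, which promotes breakdown of the stress factor CREB3, measured 17, 14.6, 23.1 and 18.6 CPM in Ripk1-hepKO and 33, 37, 19.3 and 40.3 CPM in Ripk1-Con, so mice 28, 34 and 39 were below every control and only mouse 37 lay above the control mouse 40, with a log2 fold change of -0.82 ± 0.23 (SE, adjusted p = 0.742), and -0.79 without mouse 28. Picked after its values were seen, Gadd45a, a growth arrest gene, stood at 24.7 CPM in mouse 28 and 1.09 to 5.83 CPM in the others, and its log2 fold change without mouse 28 was 0.41. Also picked so, Ero1l, the oxidase of disulphide formation, was higher at an unadjusted p under 0.05, with a log2 fold change of 0.52, and without mouse 28 it was at 0.25 and no longer at that level.

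Of 12 other cytosolic tRNA synthetases, 10 had a fold change above 0 and the median was 0.12, or 11 and 0.09 without mouse 28. The lowest p belonged to Kars (log2 fold change 0.14, adjusted p = 0.787) and Vars (0.22, adjusted p = 0.79), the lysyl and valyl enzymes, which were at 0.13 and 0.27 without mouse 28. The 17 mitochondrial synthetases had a median of -0.03 with 8 above 0, and in 12 of them mouse 28 was the lowest mouse (26.8% of all genes). Without mouse 28 the median turned to 0.08, with 14 above 0. Lars2 and Hars2, the leucyl and histidyl enzymes of mitochondria, had log2 fold changes of -0.23 (adjusted p = 0.77) and -0.15 (adjusted p = 0.804), and -0.23 and -0.08 without mouse 28. The 17 genes of the eIF2alpha signal core had a median of 0.00, or 0.02 without mouse 28. Nck1, an adaptor protein, was at 0.37 (adjusted p = 0.742, unadjusted p under 0.05) and Eif2b3, a subunit of eIF2B, at 0.38 (adjusted p = 0.769). Without mouse 28 they were at 0.25 and 0.27, and Nck1 no longer had an unadjusted p under 0.05. In the ATF6 and XBP1 branch of the unfolded protein response, 10 of 14 chaperone genes were above 0 with a median of 0.05, or 9 and 0.04 without mouse 28. Dnajb9, a co-chaperone of BiP, was at 0.52 (adjusted p = 0.774) and Manf at 0.23 (adjusted p = 0.819). Dnajb9 stood at 326 CPM in mouse 28 and 92.4 to 194 CPM in the others, and without mouse 28 the fold changes were 0.19 and 0.09. In all of these lists 0 genes passed in edgeR.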

How the data were processed

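Per the labels' protocols, polyadenylated liver RNA was made into dUTP strand-marked libraries and sequenced in pairs. The authors deposited raw whole-number counts per Ensembl gene. Per the submitters' processing notes the tools were StringTie 2.2.1, STAR 2.5.2b, DESeq2 1.38.1 and FastQC 0.11.5, in no stated order, and the build was GRCm38.p6. The counting tool, its strand setting and the annotation release are not given in the sources used here. Symbols and positions came from GENCODE M21, in which 55154 IDs matched and 181 did not.

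The counts were filtered with filterByExpr, scaled by TMM and tested with edgeR 4.0.16 (robust quasi-likelihood, R 4.3.3, genotype alone, two-sided), which was tested on simulated data. The common biological coefficient of variation was 0.292. Mouse 28 was left out in a second comparison with its own filter and scaling. Alternatives were DESeq2 1.42.0, limma 3.58.1 voom, other scalings and filters, and each mouse left out. Counts of reads are not independent molecules, so depth covers counting error only. The labels give each mouse its own number, and no batch or litter is given.

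All 38 genes are named. Full values are given for Atf4, Ddit3, Eif2ak3, Eif2ak4, Asns, Trib3, Chac1 and Ppp1r15a. They are also given for the 3 genes of smallest p in each class of 4 or more, the 1 of smallest p in smaller classes, and up to 2 per class that moved most without mouse 28. The sequence of 1 promoter site is not reported here. Of other pathway lists the 2 genes of smallest p are named. The genes, lists and this rule were chosen with earlier results of these data known.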

Additional observations from a re-analysis of the deposited data

Results flagged for a closer look

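Dixon's criterion asks for a gap to the nearest mouse above the 95% critical share of the group's range. Within groups of 4 mice, the highest or lowest mouse stood apart by it in 10 of 76 groups. It was applied to the 38 genes alone, with no share over all genes beside it. The count therefore cannot be read as a trait of these genes. In Ripk1-hepKO mouse 28 the criterion was met for Cebpb at 35.8 CPM, Atf3 at 46.7 CPM, Ppp1r15a at 39.1 CPM and Vldlr at 25.5 CPM. In Ripk1-Con mouse 40 it was so for Atf5 at 695 CPM, Trib3 at 28.3 CPM, Nupr1 at 23.9 CPM, Psat1 at 20.2 CPM and Pycr1 at 1.03 CPM. Cebpg at 105 CPM in Ripk1-Con mouse 32 was the remaining one. Each of these mice was the highest of its group, and the genes of mouse 28 and those of mouse 40 are different members of the programme. The 9 high values in mice 28 and 40 come from 2 libraries, so they are not 9 separate events.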

How the results depend on the processing

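The number of genes past the threshold was 0 in edgeR and limma under every alternative run, and DESeq2 gave 36 with all mice and 34 without mouse 28, none of them among the 38. DESeq2 gave no p for Trib3, Psat1 and Nupr1. The number of the 38 genes with an unadjusted p under 0.05 was 5 (1017 of all genes), against 8 in DESeq2 (1199), 10 without mice 28 and 40 (1451), and 0 to 8 when 1 mouse was left out (633 to 1409). The transporter median was 1.02, against 0.55 under the 1 CPM filter, where Slc7a11 was not tested, and 0.52 to 1.57 when 1 mouse was left out. The serine and folate median ran from 0.054 to 0.38 when 1 mouse was left out. Of the 29 genes given in full, 17 kept their direction under every alternative that gave them a value (18 for 15 of them, and 17 for Phgdh and Slc7a11, not tested under the 1 CPM filter), and none of the 29 passed the threshold under any. Shmt2 (-0.01) turned to 0.038 by library size alone, 0.0052 with no filter, 0.021 with weighted voom and 0.069 without mice 28 and 40. Cebpb (0.23) was -0.053 in voom, -0.40 in weighted voom and -0.64 without mice 28 and 40. With weighted voom Eif2ak4 was -0.0498, Sesn2 -0.03997 and Aars 0.0901, and without mice 28 and 40 they were -0.067, -0.11 and 0.076, and Chac1 was -0.17. Leaving out 1 mouse gave ranges of -0.094 to 0.12 for Shmt2, -0.60 to 0.45 for Cebpb, -0.063 to 0.18 for Eif2ak4, -0.12 to 0.64 for Sesn2, -0.15 to 0.056 for Aars, -0.028 to 1.31 for Ddit3, -0.032 to 0.40 for Vldlr, -0.072 to 1.93 for Trib3, -0.35 to 0.44 for Pycr1, -0.099 to 0.24 for Xpot and -0.037 to 0.18 for Mars. Beyond the mice left out, the cause of these shifts was not tested. No paired analysis was possible because the labels give no pairing of mice between the groups, such as by litter. Stc2, Phgdh, Slc7a11 and Pycr1 had at most 70 counts in any library, which limits what their fold changes can show.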
